A study of Mus musculus with 6 samples.

Results

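Bone morphogenetic proteins (BMPs) and transforming growth factor beta (TGF-beta) are secreted signals of 1 superfamily, and the genes described here encode their ligands, receptors, antagonists, Smad transducers and Id targets. The set was named gene by gene and held 51 mouse genes. A row in the files matched 50 of these by symbol, of 22824 rows in all, and Id1 was not analysed here. Levels are FPKM, a count of sequenced fragments scaled to transcript length and to the mapped fragments of a library. A gene was tested where 3 or more libraries reached 1 FPKM, which held for 42 of the 50 genes and 12177 rows in all. The 8 genes below that level were Inha, Gdf5, Gdf6, Chrd, Fstl3, Bmpr1b, Acvr2b and Smad9.

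The study measured RNA in femurs of C57BL/6 mice that overexpressed Wnt7b, a Wnt ligand, and of littermate controls. OE mice carried 9.6kb DMP1-Cre together with the R26-Wnt7b allele, and all were homozygotes according to the labels. Ctrl mice carried R26-Wnt7b without Cre, so the silent allele was shared by both groups. The Dmp1 sequence that drives this Cre is active in osteocytes and mature osteoblasts, and the labels describe the bone as cleared of cartilage and marrow. The labels give no age. Each group had 3 libraries, and nothing in the labels ties a library to a separate animal, so a p-value here reflects how far these libraries spread, part of which may be technical.

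In bone, BMPs act through a receptor pair of type I and type II serine kinases that phosphorylate Smad1, Smad5 and Smad9, and they are best known for driving mesenchymal cells towards osteoblasts and chondrocytes. TGF-beta and activins use other receptor pairs and phosphorylate Smad2 and Smad3. Bone matrix stores TGF-beta in a latent complex, from which it is released when osteoclasts resorb the matrix. Both branches share Smad4 and induce inhibitors that feed back on them, among them Smad6, Smad7, Bambi and Noggin. Id genes, which encode inhibitors of basic helix-loop-helix factors, are direct BMP targets.

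Wnt7b measured 2.49, 0.661 and 0.295 FPKM in OE 1, 2 and 3, against 0.909 FPKM in the library labelled Ctrl 1, 0.00833 FPKM in Ctrl 2 and a listed 0 in Ctrl 3. The library labelled Ctrl 1 thus lay above 2 of the OE libraries for the targeted gene, and the cause was not tested. An exact two-sided permutation test of the difference between the OE and Ctrl means, in log2(FPKM + 1), gave p = 0.3. The smallest p that 3 against 3 allows is 0.1. Deposited FPKM totals ran from 596413 to 775942 per library, and 11627 to 12258 genes reached 1 FPKM. Absolute depth is unknown.

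Markers of bone cells set Ctrl 2 and Ctrl 3 apart from the other 4 libraries. The 10 osteoblast markers summed to 3256 to 5891 FPKM in OE libraries, against 4723 FPKM in the library labelled Ctrl 1 and 412 and 341 FPKM in Ctrl 2 and Ctrl 3. For 9 of the 10, Ctrl 2 and Ctrl 3 were the lowest libraries. The 8 osteocyte markers summed to 191 to 609 FPKM in OE, against 410 FPKM in the library labelled Ctrl 1 and 49.4 and 58.1 FPKM in Ctrl 2 and Ctrl 3, and Pdpn of this list stood at 0 in all 6 libraries. The 7 osteoclast markers with a row summed to 1300 to 3719 FPKM in OE, against 3163 FPKM in the library labelled Ctrl 1 and 1031 and 993 FPKM in Ctrl 2 and Ctrl 3. Cartilage, which the labels describe as removed, and muscle showed the same order. The 10 cartilage markers summed to 354 to 640 FPKM in OE, against 538 FPKM in the library labelled Ctrl 1 and 31.4 and 36.8 FPKM in Ctrl 2 and Ctrl 3. The 9 muscle markers with a row summed to 1210 to 1514 FPKM in OE, against 1429 FPKM in the library labelled Ctrl 1 and 218 and 322 FPKM in Ctrl 2 and Ctrl 3. Marrow cells were present in every library, with 60912 to 170816 FPKM summed over 10 neutrophil markers in OE and 106370 to 146655 FPKM in Ctrl. OE 3 stood apart in another way, with 38034 FPKM over 9 erythroid markers, against 1113 to 8011 FPKM in the other 5 libraries. It was also highest for 9 of 9 B-cell and 8 of 9 megakaryocyte markers, which summed to 511 and 2279 FPKM in OE 3, against at most 120 and 1614 FPKM in any other library. The part of these cell types in the results that follow was not tested, and in bulk bone fewer cells of a type and less RNA per cell cannot be told apart.

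Across the 42 genes tested, 35 had a higher and 7 a lower mean log2 level in OE. The median difference in log2(FPKM + 1), OE minus Ctrl, was 0.35, beside -0.04 over all 12177 genes, of which 5316 were positive. With all 6 libraries, none of the 42 passed a Benjamini-Hochberg adjusted p of 0.05 in limma, and neither did any other gene, so that the background share called was 0.0%. The smallest adjusted p among the 42 was 0.554. At an unadjusted p under 0.05, Bmp3 and Fstl1 were higher, where 4.12% of all genes were, and Id2 was lower, where 4.08% were. limma without a trend also called 0 genes, with 996 genes at an unadjusted p under 0.05 and 999 with the trend. Every OE value exceeded every Ctrl value for 3 of the 42 genes, Bmp2, Fstl1 and Bmpr2, which is 7.14% beside 4.59% of all genes tested. In the deposited FPKM, 0 of the 42 had every OE value below every Ctrl value, a pattern that 8.97% of all genes showed. When marrow and muscle markers were left out of the scaling total, Bmpr2 overlapped, Id2 lay below in OE and Tgfbr1 lay above.

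**Figure D1:**
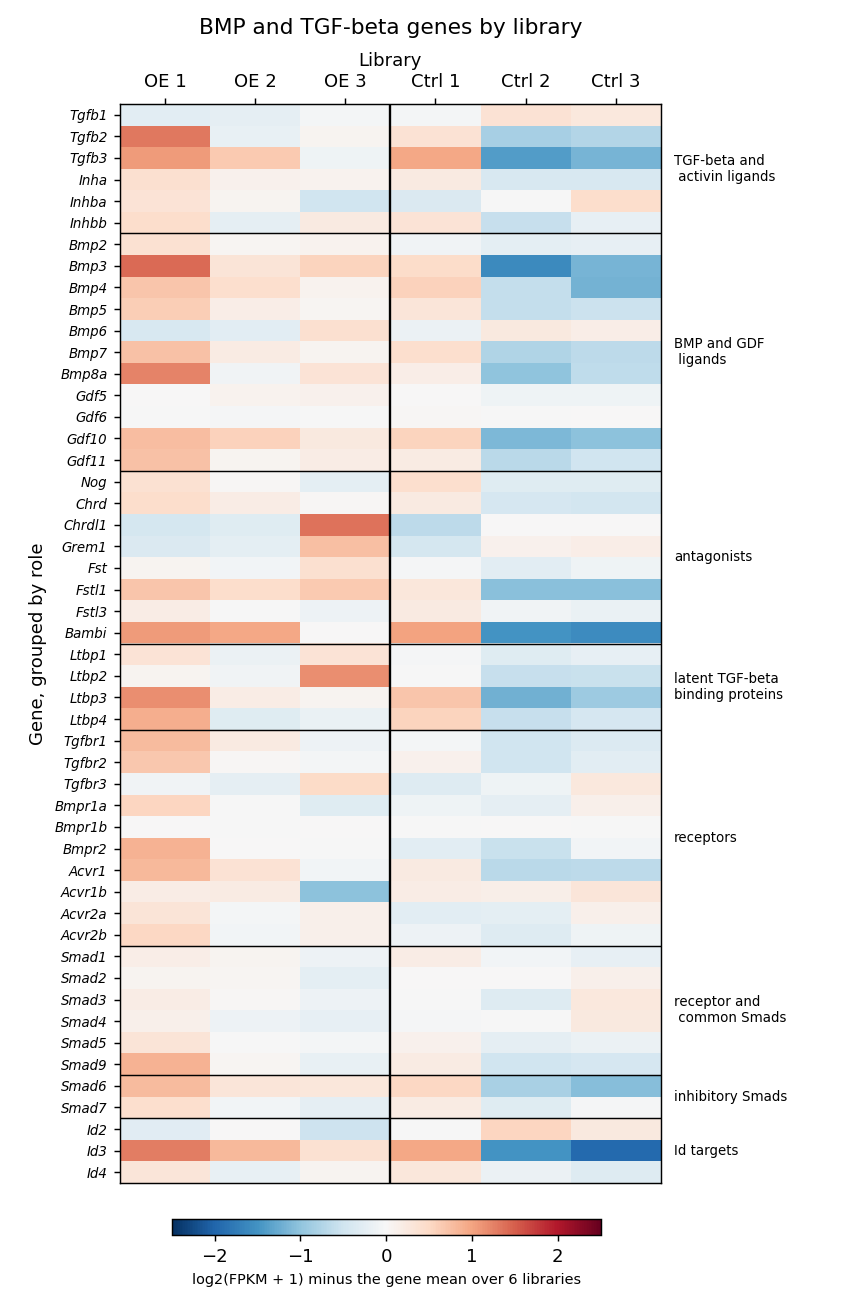
Level of each of the 50 genes with a row (rows, grouped by role) in each library (columns), drawn as log2(FPKM + 1) minus the gene's mean over the 6 libraries, with red above and blue below that mean. Most rows are blue in Ctrl 2 and Ctrl 3 and red in OE 1, and the value in the library labelled Ctrl 1 lies within the OE range for 33 of the 42 genes tested.

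The Ctrl libraries did not lie together for many of these genes. The library labelled Ctrl 1 lay within the range of the 3 OE values for 33 of the 42 genes, 78.6% beside 50.8% of all genes. Ctrl 2 and Ctrl 3 were both below the other 4 libraries for 24 of the 42, 57.1% beside 16.7%, and both above them for Tgfb1 and Id2, 4.76% beside 14.2%. OE 1 held the highest of the 6 values for 27 of the 42, 64.3% beside 19.2%. For 18 of the 42 genes the library labelled Ctrl 1 exceeded the mean of Ctrl 2 and Ctrl 3 by a factor above 2.

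Without the library labelled Ctrl 1, 8 of the 42 genes were called higher in OE and 0 lower. The background shares were 4.25% of all genes higher and 0.649% lower. The 8 were the ligands Tgfb3, Bmp3, Bmp4 and Gdf10, the antagonists Fstl1 and Bambi, the inhibitory Smad6 and the target Id3. Their differences ran from 1.29 for Bmp4 to 2.54 for Id3 in log2(FPKM + 1), and their adjusted p in limma from 0.00552 for Fstl1 to 0.0474 for Bmp4. The median difference of the 42 was then 0.48, with 33 positive, and the size of the difference grew for 37 of the 42. Without both this library and OE 3, 13 of the 42 were called higher and 0 lower, beside 7.92% and 3.48% of all genes. These calls rest on Ctrl 2 and Ctrl 3 alone as controls. Both omissions were singled out from values of these same libraries. Leaving out a control that lies among the OE values widens most differences in advance. The adjusted p of these fits, here and for single genes below, therefore describe the remaining libraries and are not independent tests.

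**Figure D2:**
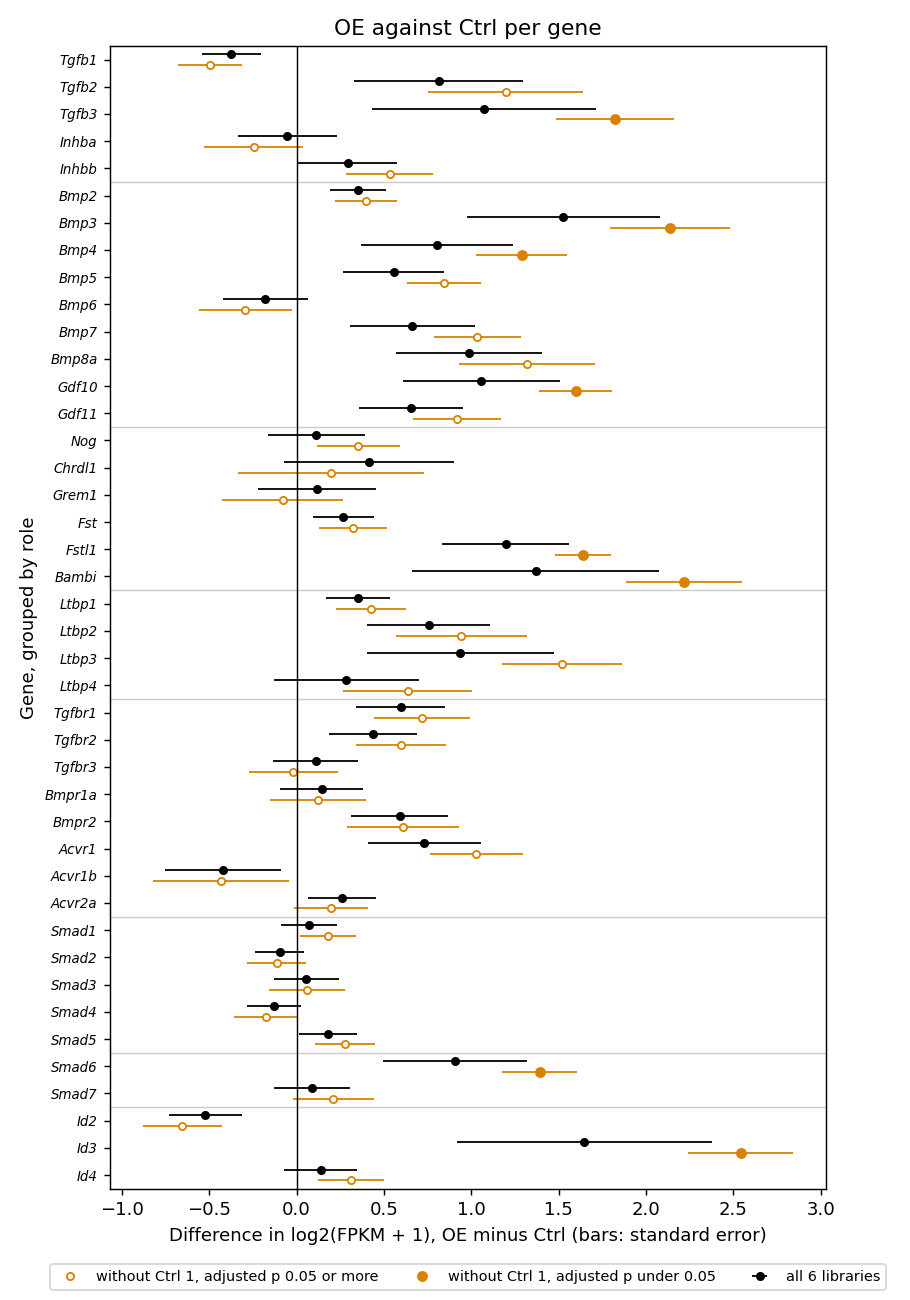
Difference in log2(FPKM + 1), OE minus Ctrl, for the 42 genes tested, with bars of 1 standard error from limma. Black points use all 6 libraries and none passes an adjusted p of 0.05, while orange points leave out the library labelled Ctrl 1 and the 8 filled ones pass.

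Of the ligands of the TGF-beta branch, Tgfb1 (chr7:25687002-25705077, mm10) had the highest mean FPKM of the 50 genes. It measured 95.2, 98.1 and 111 FPKM in OE 1, 2 and 3, against 111 FPKM in the library labelled Ctrl 1 and 148 and 138 FPKM in Ctrl 2 and Ctrl 3. The groups overlapped at OE 3 and the library labelled Ctrl 1, and the difference of -0.37 (SE 0.17) did not pass in limma (adjusted p = 0.554). Tgfb3, the isoform best known from palate and cartilage, measured 14.1, 10.3 and 5.70 FPKM in OE, against 13.0 FPKM in the library labelled Ctrl 1 and 1.71 and 2.21 FPKM in Ctrl 2 and Ctrl 3. Of the controls, the library labelled Ctrl 1 sat among the OE values and the other 2 controls lay below all of them. The difference was 1.07 (SE 0.64, adjusted p = 0.574) with 6 libraries and 1.82 (SE 0.34, adjusted p = 0.0366) without the library labelled Ctrl 1, both from limma.

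Tgfb2, needed for skeletal and cardiac development, was low, with 5.05, 1.14 and 1.55 FPKM in OE, against 2.11 FPKM in the library labelled Ctrl 1 and 0.354 and 0.449 FPKM in Ctrl 2 and Ctrl 3. Here OE 1 stood above all others, and Ctrl 2 and Ctrl 3 were again lowest. As a share of the summed FPKM of the 3 isoforms, Tgfb1 made up 83.3%, 89.6% and 93.9% in OE 1, 2 and 3, against 88.0% for the library labelled Ctrl 1, 98.6% for Ctrl 2 and 98.1% for Ctrl 3. Inhba, which encodes the subunit of activin A, measured 19.0, 15.4 and 10.1 FPKM in OE and 11.3, 14.6 and 20.3 FPKM in Ctrl 1, 2 and 3. The groups spanned the same range for Inhba, and its difference of -0.05 (SE 0.28) turned positive under both rescalings of the libraries and without OE 3 or Ctrl 3. Inhbb had a mean of 2.52 ± 0.777 FPKM in OE and 1.92 ± 0.941 FPKM in Ctrl (SD, n = 3 each), and Inha stayed at or below 1.29 FPKM in all 6 libraries.

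Among BMP and GDF ligands, 8 of the 9 tested had a positive difference, with a median of 0.66, and 8 of the 9 were lowest in Ctrl 2 and Ctrl 3. Bmp6 was the exception to both. Bmp3 (chr5:98854415-98884396), an antagonist-like BMP made by osteoblasts and osteocytes that lowers bone density in mice, was the most abundant BMP ligand in OE. It measured 14.9, 6.51 and 7.78 FPKM in OE 1, 2 and 3, against 7.23 FPKM in the library labelled Ctrl 1 and 0.999 and 1.67 FPKM in Ctrl 2 and Ctrl 3. OE 2 alone lay below the library labelled Ctrl 1, so the groups overlapped there. The difference was 1.53 (SE 0.55, adjusted p = 0.554) with all libraries and 2.14 (SE 0.34, adjusted p = 0.023) without the library labelled Ctrl 1, both from limma.

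Bmp2 (chr2:133552159-133562885), the osteogenic ligand required for fracture repair, was the one tested BMP ligand whose groups did not overlap. It measured 3.37, 2.48 and 2.59 FPKM in OE 1, 2 and 3, against 2.15 FPKM in the library labelled Ctrl 1 and 1.84 and 1.92 FPKM in Ctrl 2 and Ctrl 3. The 3 controls lay close together for Bmp2, unlike for Bmp3. Its difference was small, 0.35 (SE 0.16, limma adjusted p = 0.554), and it was not called without the library labelled Ctrl 1 either (0.40, SE 0.18, adjusted p = 0.335).

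Bmp4, which with Bmp2 patterns the skeleton, measured 5.74, 4.52 and 3.41 FPKM in OE 1, 2 and 3, against 5.14 FPKM in the library labelled Ctrl 1 and 1.74 and 0.838 FPKM in Ctrl 2 and Ctrl 3. Gdf10, also called BMP3B and close in sequence to Bmp3, measured 4.48, 3.76 and 2.81 FPKM in OE, against 3.71 FPKM in the library labelled Ctrl 1 and 0.482 and 0.583 FPKM in Ctrl 2 and Ctrl 3. For both, the library labelled Ctrl 1 fell among the OE libraries and the other controls lay below them. Without it the limma difference was 1.29 (SE 0.26, adjusted p = 0.0474) for Bmp4 and 1.60 (SE 0.21, adjusted p = 0.0124) for Gdf10. Bmp8a measured 8.78, 2.92 and 4.24 FPKM in OE, against 3.68 FPKM in the library labelled Ctrl 1 and 1.06 and 1.67 FPKM in Ctrl 2 and Ctrl 3, and was not called in either fit. A near copy, Bmp8b, lies on the same chromosome, and how shared reads were assigned is not given in the sources used here.

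Bmp5, Bmp7 and Gdf11 followed the same order, with OE means of 3.38 ± 0.927, 1.67 ± 0.685 and 1.88 ± 0.756 FPKM, against Ctrl means of 2.07 ± 1.14, 0.771 ± 0.861 and 0.859 ± 0.632 FPKM (SD, n = 3 each). Bmp6, a ligand known for controlling iron through hepcidin, had the opposite sign, with 2.36, 2.70 and 4.86 FPKM in OE, against 3.04 FPKM in the library labelled Ctrl 1 and 4.26 and 3.97 FPKM in Ctrl 2 and Ctrl 3. Its groups overlapped, and OE 3 was the highest. That library also had the highest sums of erythroid, B-cell, megakaryocyte and marrow stroma markers, and the part of these cells was not tested. The makeup of the BMP ligands differed between libraries. Of the summed FPKM of 7 BMP ligands, Bmp3 held 35.5%, 27.7% and 29.1% in OE 1, 2 and 3, against 27.4% for the library labelled Ctrl 1, 8.69% for Ctrl 2 and 14.1% for Ctrl 3. Bmp6 held 5.60%, 11.5% and 18.2% in OE, against 11.5% for the library labelled Ctrl 1, 37.1% for Ctrl 2 and 33.5% for Ctrl 3. Gdf5 and Gdf6, joint-forming ligands, stayed at or below 0.170 and 0.0352 FPKM. Gdf6 measured 0.00754, 0 and 0.00719 FPKM in OE and 0.0352, 0.00794 and 0.0273 FPKM in Ctrl, so every OE value lay below every Ctrl value. Both genes were too low for the order of the libraries to be read.

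**Figure D3:**
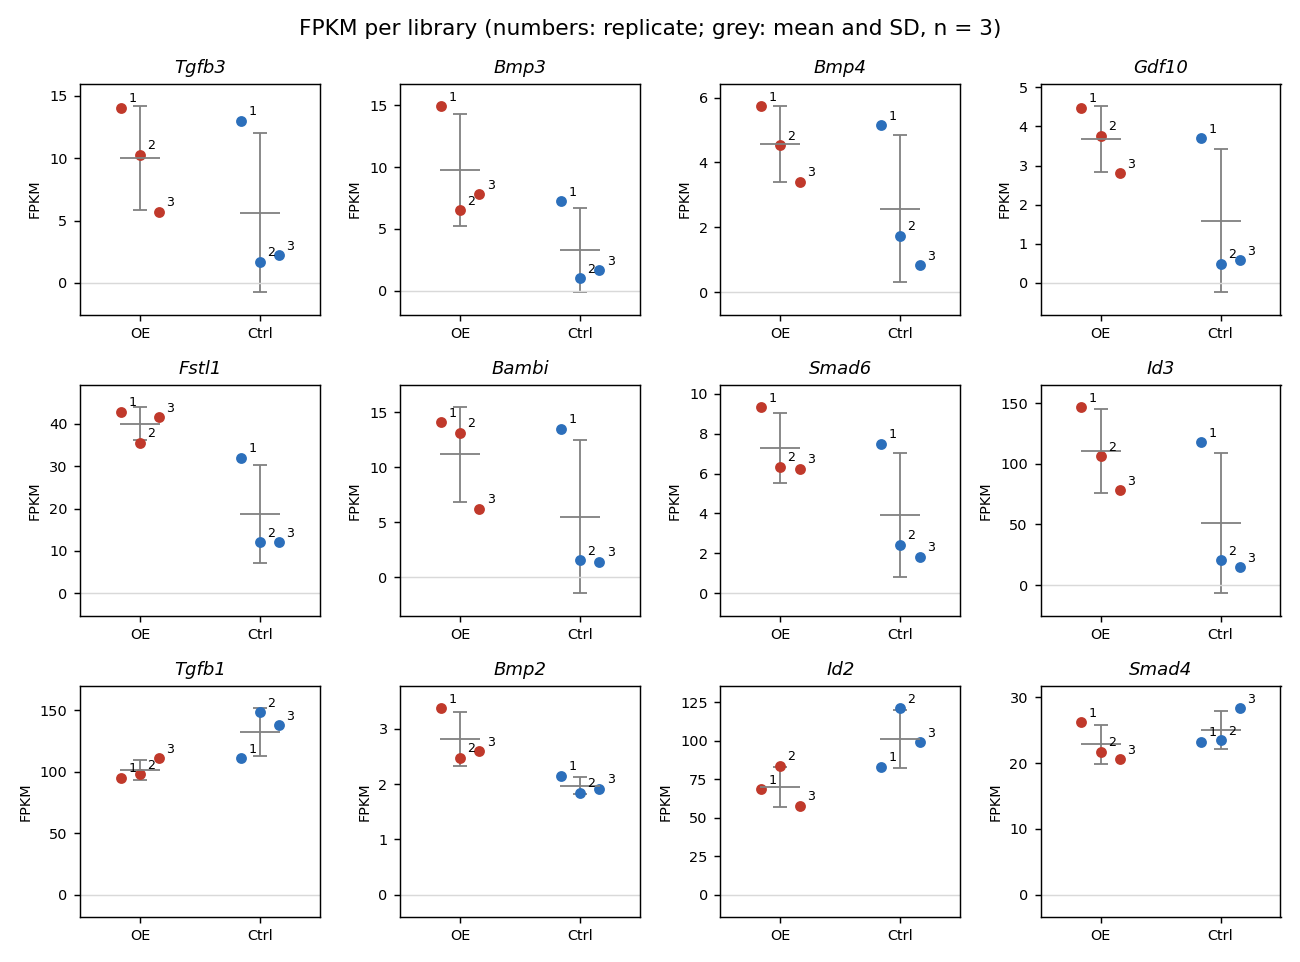
FPKM of 12 genes in each OE library (red, left) and Ctrl library (blue, right), with replicate numbers beside the points and the mean and SD in grey (n = 3). In the upper 2 rows, the 8 genes called without the library labelled Ctrl 1, that library (blue 1) lies within the OE range, or just below it for Fstl1, while Ctrl 2 and Ctrl 3 lie below all OE points, and in the lower row Bmp2 separates the groups and Tgfb1, Id2 and Smad4 overlap.

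Promoters were printed for Gdf10, Bmp4 and Smad6, whose windows overlap no annotated exon. These 3 genes were low together in Ctrl 2 and Ctrl 3 and were called without the library labelled Ctrl 1. Other genes low in Ctrl 2 and Ctrl 3 also had such windows, among them Bmp8a, Ltbp3 and Tgfbr2, and are not printed. Each line holds the 250 bases before the RefSeq start on GRCm38.p6, read 5′ to 3′ on the gene's strand, with matches to Smad motifs in capitals.
Gdf10, chr14:33923337-33923586, plus strand: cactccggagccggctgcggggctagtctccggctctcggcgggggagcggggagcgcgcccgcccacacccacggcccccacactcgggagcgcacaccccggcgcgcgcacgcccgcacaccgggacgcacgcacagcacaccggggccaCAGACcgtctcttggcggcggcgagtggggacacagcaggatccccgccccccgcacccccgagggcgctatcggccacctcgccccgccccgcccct
Bmp4, chr14:46390670-46390919, minus strand: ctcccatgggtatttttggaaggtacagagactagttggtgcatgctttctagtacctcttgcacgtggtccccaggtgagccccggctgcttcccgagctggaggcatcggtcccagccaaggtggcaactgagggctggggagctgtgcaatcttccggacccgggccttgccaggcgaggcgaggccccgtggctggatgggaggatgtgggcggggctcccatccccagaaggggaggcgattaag
Smad6, chr9:64022060-64022309, minus strand: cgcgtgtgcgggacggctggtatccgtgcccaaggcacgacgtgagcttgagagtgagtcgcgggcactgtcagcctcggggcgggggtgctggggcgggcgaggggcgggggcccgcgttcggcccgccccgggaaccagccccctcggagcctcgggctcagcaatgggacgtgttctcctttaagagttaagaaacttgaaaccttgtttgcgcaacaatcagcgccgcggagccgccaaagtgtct

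The motifs searched on both strands were the GC-rich Smad element GGCGCC, which is its own reverse complement, and the Smad-binding box CAGAC, which reads GTCTG on the other strand. In the printed windows no match overlapped another. Gdf10 had 1 CAGAC, and neither motif was found in the windows of Bmp4 and Smad6. The 36 genes of the set with a window had 44 windows, some of which overlap, and 11 of these (25.0%) held GGCGCC and 20 (45.45%) held CAGAC. Of 32851 windows of the same length, 9.59% and 42.19% did. Windows on chromosome 18, where Bambi, Smad2, Smad4 and Smad7 lie, were not counted for the set, while the comparison windows had no such limit. A match is a description of these letters, not a site.

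Antagonists bind ligands outside the cell or dull their receptors, and all 6 tested had a positive difference, with a median of 0.34. Fstl1 (chr16:37776873-37836514), a secreted follistatin-like glycoprotein of mesenchymal cells, had the smallest unadjusted p of the set. It measured 42.8, 35.5 and 41.6 FPKM in OE 1, 2 and 3, against 32.0 FPKM in the library labelled Ctrl 1 and 12.1 FPKM in both Ctrl 2 and Ctrl 3. The groups did not overlap, though the library labelled Ctrl 1 lay nearer to OE 2 than to the other controls. Its limma difference was 1.20 (SE 0.36, unadjusted p = 0.014, adjusted p = 0.554) with all libraries and 1.64 (SE 0.16, adjusted p = 0.00552) without the library labelled Ctrl 1.

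Bambi, a decoy receptor that lacks the kinase domain and is induced by Wnt, BMP and TGF-beta signals, measured 14.1, 13.1 and 6.24 FPKM in OE 1, 2 and 3, against 13.5 FPKM in the library labelled Ctrl 1 and 1.55 and 1.43 FPKM in Ctrl 2 and Ctrl 3. The ratio within the Ctrl group, 9.06 for the library labelled Ctrl 1 over the mean of the other controls, was the largest of the 42 genes. Its difference was 1.37 (SE 0.71, adjusted p = 0.561) with all libraries and 2.22 (SE 0.33, adjusted p = 0.019) without that library, both from limma. Fst, the activin trap follistatin, varied little, with 3.33, 2.96 and 4.45 FPKM in OE and 3.08, 2.43 and 2.83 FPKM in Ctrl, and was not called in either fit.

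Chrdl1 and Grem1, secreted BMP antagonists of stromal cells that were picked out after their values were seen, followed another order. Chrdl1 measured 1.70, 1.97 and 8.32 FPKM in OE 1, 2 and 3, against 1.33 FPKM in the library labelled Ctrl 1 and 2.68 and 2.67 FPKM in Ctrl 2 and Ctrl 3. Grem1 measured 1.41, 1.61 and 4.20 FPKM in OE, against 1.26 FPKM in the library labelled Ctrl 1 and 2.32 and 2.45 FPKM in Ctrl 2 and Ctrl 3. Both were highest in OE 3, and both were lower in OE 1 and OE 2 than in Ctrl 2 and Ctrl 3. The marrow stroma markers summed to 239, 290 and 630 FPKM in OE 1, 2 and 3, against 246 FPKM in the library labelled Ctrl 1 and 384 and 353 FPKM in Ctrl 2 and Ctrl 3, with 6 of 7 highest in OE 3, and their part was not tested. Their differences of 0.42 and 0.11 became -0.38 and -0.43 without the library labelled Ctrl 1 and OE 3, so no direction is given for either. Noggin (Nog) averaged 1.11 ± 0.466 FPKM in OE and 0.972 ± 0.604 FPKM in Ctrl (SD, n = 3 each), and Chrd and Fstl3 stayed at or below 0.993 and 1.11 FPKM.

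Latent TGF-beta binding proteins tether the latent complex to matrix, and all 4 had a positive difference, with a median of 0.55, and their lowest values in Ctrl 2 and Ctrl 3. Ltbp3, whose loss in mice gives dense bone, measured 22.5, 11.0 and 9.99 FPKM in OE 1, 2 and 3, against 16.1 FPKM in the library labelled Ctrl 1 and 3.59 and 4.63 FPKM in Ctrl 2 and Ctrl 3. Its limma difference was 0.94 (SE 0.53, adjusted p = 0.564) with all libraries, 1.52 (adjusted p = 0.0679) without the library labelled Ctrl 1 and 1.72 (adjusted p = 0.0154) without OE 3 as well. Ltbp2, which binds fibrillin rather than TGF-beta, measured 4.57, 3.95 and 10.8 FPKM in OE, against 4.28 FPKM in the library labelled Ctrl 1 and 2.53 and 2.61 FPKM in Ctrl 2 and Ctrl 3. Here OE 3 was high, as for Chrdl1, but Ctrl 2 and Ctrl 3 were the lowest. Ltbp1 measured 11.9, 8.09 and 11.8 FPKM in OE and 8.94, 7.26 and 7.76 FPKM in Ctrl. Ltbp4 measured 9.85, 3.71 and 4.16 FPKM in OE and 7.56, 2.90 and 3.37 FPKM in Ctrl, and its sign turned without OE 1.

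Receptors bind the ligands at the cell surface, and 7 of the 8 tested had a positive difference, with a median of 0.35 and 0 called without the library labelled Ctrl 1. Tgfbr2, the type II receptor for TGF-beta, measured 39.9, 25.0 and 23.6 FPKM in OE 1, 2 and 3, against 26.4 FPKM in the library labelled Ctrl 1 and 17.0 and 20.4 FPKM in Ctrl 2 and Ctrl 3. Its type I partner Tgfbr1 measured 28.2, 18.8 and 14.6 FPKM in OE, against 15.3 FPKM in the library labelled Ctrl 1 and 10.9 and 12.4 FPKM in Ctrl 2 and Ctrl 3. In both, OE 1 was highest, and the groups overlapped because the library labelled Ctrl 1 lay above OE 3, and for Tgfbr2 above OE 2 as well. The limma difference of Tgfbr1 was 0.59 (SE 0.25, adjusted p = 0.554), and it was called only without both the library labelled Ctrl 1 and OE 3 (0.93, adjusted p = 0.040).

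Bmpr2, the type II receptor for BMPs, measured 8.10, 3.99 and 3.95 FPKM in OE 1, 2 and 3, against 3.15 FPKM in the library labelled Ctrl 1 and 2.37 and 3.72 FPKM in Ctrl 2 and Ctrl 3. The groups did not overlap in the deposited FPKM, but OE 2 and OE 3 lay just above Ctrl 3, and they overlapped when marrow and muscle markers were left out of the scaling total. The difference of 0.59 (SE 0.28) was not called (limma adjusted p = 0.554). Acvr2b, a type II receptor for activins and BMPs, also separated the groups, OE above Ctrl, with 1.77, 0.859 and 1.11 FPKM against 0.774, 0.544 and 0.797 FPKM. It was below the level needed for the main test (exact permutation p = 0.1). Of the other genes below that level, Gdf6 separated the groups the other way, OE below Ctrl. The share of all genes below the level that did so is not given. Acvr1, the type I receptor ALK2 that is mutated in human fibrodysplasia ossificans progressiva, measured 7.49, 5.24 and 3.64 FPKM in OE, against 4.71 FPKM in the library labelled Ctrl 1 and 2.05 and 2.10 FPKM in Ctrl 2 and Ctrl 3. It was not called without that library (1.03, limma adjusted p = 0.098) and was called without OE 3 as well (1.24, adjusted p = 0.00896).

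Acvr1b, the type I receptor ALK4 for activin, was the receptor with a negative difference. It measured 18.1 and 18.5 FPKM in OE 1 and OE 2 and 7.30 FPKM in OE 3, against 18.2, 17.6 and 19.8 FPKM in Ctrl 1, 2 and 3. The other 5 libraries lay within a narrow range, and the limma difference was -0.42 (SE 0.33, adjusted p = 0.647) with all libraries. Without the library labelled Ctrl 1 and OE 3 it was -0.03 (SE 0.16, adjusted p = 0.949). Tgfbr3, Bmpr1a and Acvr2a had mean FPKM of 4.61 ± 1.52, 5.31 ± 1.92 and 1.51 ± 0.324 in OE and 4.15 ± 1.07, 4.57 ± 0.703 and 1.10 ± 0.324 in Ctrl (SD, n = 3 each). Bmpr1b, a type I receptor of cartilage condensations, stayed at or below 0.0408 FPKM.

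The Smads that carry the signal to the nucleus had, over the 5 tested, the smallest median difference of the 8 roles. It was 0.05, 3 positive and 2 negative, and none was called with or without the library labelled Ctrl 1. Smad4, the partner of both branches, measured 26.2, 21.7 and 20.6 FPKM in OE and 23.3, 23.5 and 28.3 FPKM in Ctrl. Smad2 measured 20.5, 20.2 and 16.4 FPKM in OE and 19.8, 19.7 and 21.5 FPKM in Ctrl. The groups overlapped for both, and the library labelled Ctrl 1 did not stand apart from Ctrl 2 and Ctrl 3. Smad3 measured 12.1, 10.8 and 9.56 FPKM in OE and 10.4, 8.18 and 12.9 FPKM in Ctrl, and Smad5 11.2, 8.70 and 8.45 FPKM in OE and 9.49, 7.37 and 7.75 FPKM in Ctrl. Smad9, the third BMP receptor Smad, was below the level for testing and did not share this evenness, with 1.85, 0.613 and 0.375 FPKM in OE 1, 2 and 3, against 0.793 FPKM in the library labelled Ctrl 1 and 0.102 and 0.172 FPKM in Ctrl 2 and Ctrl 3. Smad1 averaged 9.08 ± 1.07 FPKM in OE and 8.64 ± 1.36 FPKM in Ctrl (SD, n = 3 each). The SE of these 5 differences ran from 0.14 to 0.19.

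The inhibitory Smads, feedback inhibitors of the receptors, split. Smad6, which mainly restrains BMP receptors, measured 9.32, 6.34 and 6.24 FPKM in OE 1, 2 and 3, against 7.50 FPKM in the library labelled Ctrl 1 and 2.43 and 1.85 FPKM in Ctrl 2 and Ctrl 3. Its limma difference was 0.91 (SE 0.41, adjusted p = 0.554) with all libraries and 1.39 (SE 0.21, adjusted p = 0.0209) without the library labelled Ctrl 1. Smad7, which restrains both branches, measured 7.72, 5.24 and 4.60 FPKM in OE and 6.49, 4.30 and 5.37 FPKM in Ctrl, with a difference of 0.09 (SE 0.22) whose sign turned without OE 1 or Ctrl 2. The ratio of Smad6 to Smad7, chosen after these values were seen, was 1.21, 1.21 and 1.36 in OE, against 1.16 for the library labelled Ctrl 1, 0.565 for Ctrl 2 and 0.343 for Ctrl 3.

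The Id targets split as well. Id3 (chr4:136143497-136145755) measured 147, 106 and 78.2 FPKM in OE 1, 2 and 3, against 118 FPKM in the library labelled Ctrl 1 and 20.7 and 14.8 FPKM in Ctrl 2 and Ctrl 3. Ctrl 2 and Ctrl 3 lay below every OE library, and the library labelled Ctrl 1 lay above 2 of them. The limma difference of Id3, 1.65 (SE 0.73, adjusted p = 0.554), was the largest of the 42 genes, and it was 2.54 (SE 0.30, adjusted p = 0.0102) without the library labelled Ctrl 1. Id2 measured 68.4, 83.8 and 57.6 FPKM in OE, against 83.1 FPKM in the library labelled Ctrl 1 and 121 and 98.9 FPKM in Ctrl 2 and Ctrl 3. Its difference of -0.52 (SE 0.21) had an unadjusted p of 0.041 and was called in neither fit (limma adjusted p = 0.554 and 0.204). Id4, which favours osteoblasts over fat cells in mice, measured 9.26, 6.30 and 7.73 FPKM in OE and 9.01, 6.44 and 5.59 FPKM in Ctrl.

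**Figure D4:**
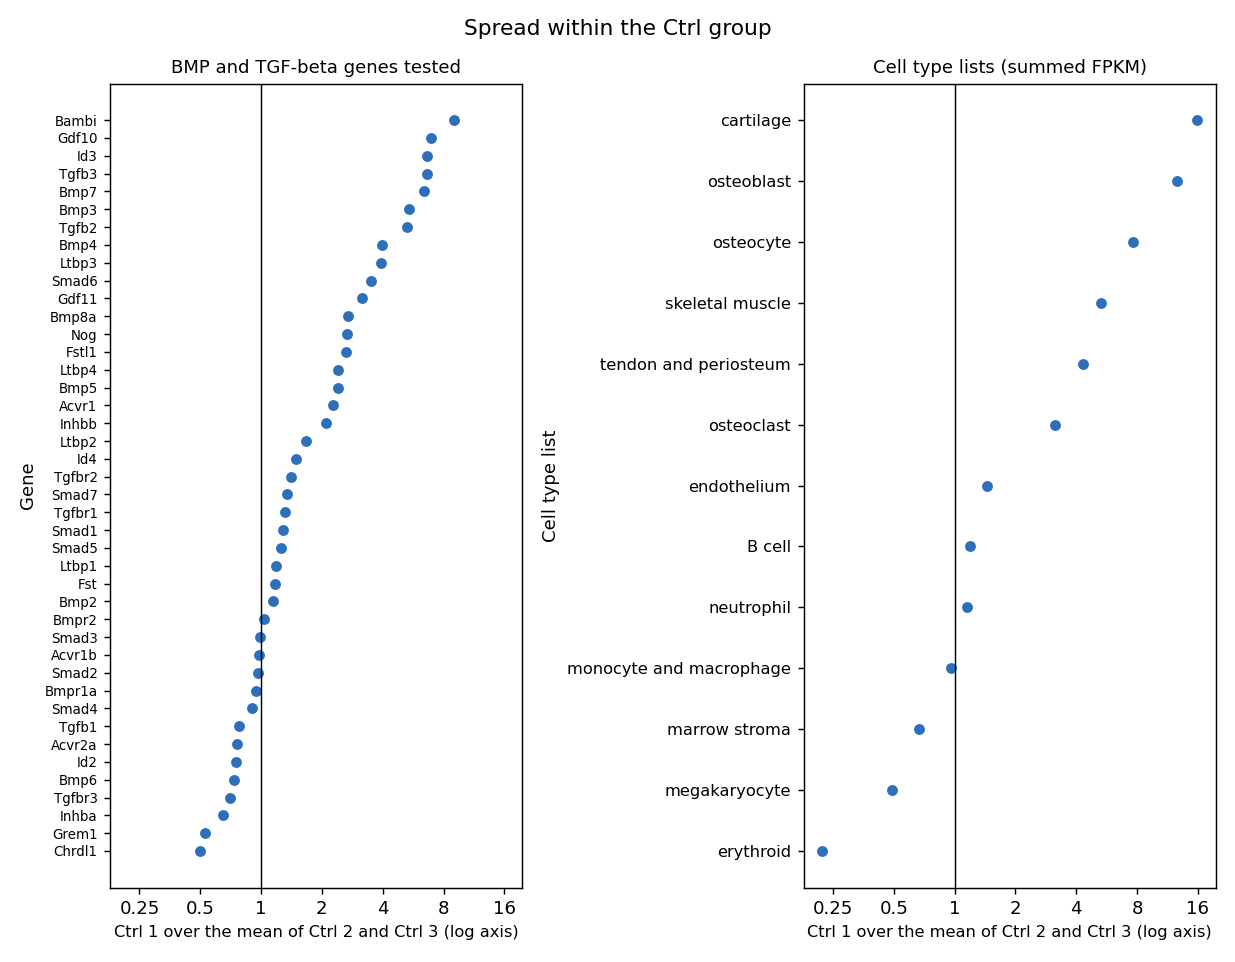
Spread within the Ctrl group, as the value in the library labelled Ctrl 1 over the mean of Ctrl 2 and Ctrl 3 on a log axis, for the 42 genes tested (left) and for the summed FPKM of the cell type lists (right). Bambi is highest among the genes at 9.06, the signalling Smads lie near 1, and the cartilage and osteoblast lists reach 15.8 and 12.6 while the erythroid list is at 0.222.

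Other genes of the pathway, from a list of 83 taken by textbook role, were read from the same fit. This list was also chosen with earlier results of these data known, so its counts are not independent of those of the set. A row matched 80 of them and 49 were tested, of which 36 had a positive difference, with a median of 0.34, and 0 were called with all libraries. Without the library labelled Ctrl 1, 16 of the 49 were called higher and 0 lower, beside 4.25% and 0.649% of all genes. Without OE 3 as well, 21 were higher and 2 lower, beside 7.92% and 3.48% of all genes. Twsg1, a secreted BMP modulator, measured 16.8, 12.0 and 12.6 FPKM in OE, against 10.2 FPKM in the library labelled Ctrl 1 and 7.53 and 7.26 FPKM in Ctrl 2 and Ctrl 3. In it and in Crim1, another BMP-binding protein, every OE value exceeded every Ctrl value, which is 2 of 49 or 4.08%, near the 4.59% of all genes. In Tgfbi, Tab1 and Furin every OE value lay below every Ctrl value, 3 of 49 or 6.12% beside 8.97%.

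Of the genes for procollagen processing, both of the 2 tested were lowest in Ctrl 2 and Ctrl 3, and so were 5 of 9 tested for release of latent TGF-beta. Bmp1, a proteinase that trims procollagen and cleaves chordin, measured 73.2, 38.2 and 35.8 FPKM in OE 1, 2 and 3, against 50.5 FPKM in the library labelled Ctrl 1 and 6.04 and 6.98 FPKM in Ctrl 2 and Ctrl 3. Its enhancer Pcolce measured 146, 114 and 73.9 FPKM in OE, against 133 FPKM in the library labelled Ctrl 1 and 13.1 and 11.4 FPKM in Ctrl 2 and Ctrl 3. In both, Ctrl 2 and Ctrl 3 lay far below the other 4 libraries. Without the library labelled Ctrl 1 the limma differences were 2.66 (SE 0.32, adjusted p = 0.0103) and 3.03 (SE 0.30, adjusted p = 0.0056). Itgav, an integrin chain that activates latent TGF-beta, and Fbn2, a fibrillin that holds latent complexes, were also called there, with differences of 1.56 (adjusted p = 0.0308) and 1.83 (adjusted p = 0.0424).

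Of the BMP response genes, 6 of 6 tested had a positive difference, and of the TGF-beta response genes 7 of 9 did. Dlx5 and Dlx3, homeobox factors of osteoblasts, had differences of 1.89 (adjusted p = 0.0196) and 2.03 (adjusted p = 0.0213) in limma without the library labelled Ctrl 1. Dlx5 is also 1 of the 10 osteoblast markers above. Tsc22d1, a TGF-beta induced gene, was called there too, at 1.65 (adjusted p = 0.0156). Tgfbi, a TGF-beta induced matrix protein that monocytes also make, measured 126, 171 and 72.2 FPKM in OE, against 172 FPKM in the library labelled Ctrl 1 and 226 and 229 FPKM in Ctrl 2 and Ctrl 3, so every OE value lay below every Ctrl value (difference -0.83, SE 0.32, limma adjusted p = 0.554). Tab1, an adaptor of the TAK1 kinase, measured 7.35, 8.13 and 9.03 FPKM in OE, against 10.7, 11.5 and 9.94 FPKM in Ctrl. Furin, a proteinase that cleaves ligand precursors, measured 35.6, 31.5 and 24.1 FPKM in OE, against 36.0, 35.8 and 44.1 FPKM in Ctrl, so OE 1 lay just below Ctrl 2.

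Among the remaining genes of this list that the naming rule picked, Gdf3 measured 0.510, 0.657 and 1.10 FPKM in OE, against 0.757 FPKM in the library labelled Ctrl 1 and 2.96 and 2.04 FPKM in Ctrl 2 and Ctrl 3, and it was called lower only without that library and OE 3 (-1.13, limma adjusted p = 0.0142). Acvrl1, the endothelial type I receptor ALK1, measured 44.9, 55.4 and 12.9 FPKM in OE and 68.1, 47.1 and 47.6 FPKM in Ctrl. Like Acvr1b, it was low in OE 3 alone, and both genes lie next to each other on chromosome 15, at chr15:101128522-101145336 and chr15:101174067-101213684. The neutrophil markers also summed lowest in OE 3, at 60912 FPKM, against 106370 to 170816 FPKM in the other libraries. Whether position or cell makeup bears on the low values of these genes was not tested. Lefty1, Rgmb and Smurf2 had differences of 0.06, 0.28 and 0.34 and were not called in any fit.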

How the data were processed

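RNA of 3 OE and 3 Ctrl femur libraries was analysed. The authors deposited 1 FPKM value per gene and library, as the file headers name it, and no counts were used. The submitters' processing notes name TopHat2, Cufflinks, DESeq and the mm10 build, without saying what each was run for or how. FPKM is scaled to transcript length and to the mapped fragments of a library, so a few abundant genes lower all other values. Depth, the strand setting and the handling of reads shared by similar genes are unknown, so no interval for depth is given.

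Of 22824 rows, 21606 carried an Ensembl identifier and 21172 were given a symbol through GENCODE M21, built on GRCm38 (mm10). The 12177 rows that reached 1 FPKM in 3 or more libraries were tested on log2(FPKM + 1) with lmFit and trended eBayes of limma 3.58.1 under R 4.3.3. The planned design named a count test had counts been held. Benjamini-Hochberg adjustment ran over all 12177, and adjusted p under 0.05 was called. Differences on this scale understate changes of low genes. Genes below the level were given an exact two-sided permutation test. Simulated data with known changes were used to test the limma step. Other work used matplotlib 3.10.9, scipy 1.17.1, pandas 2.3.3 and numpy 2.4.6 in Python 3.11.15.

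Members and lists were chosen with earlier results of these data known. Genes named with values are, in each role, the 3 with the highest mean FPKM and the 3 with the smallest p, those without overlap between groups, and the 2 with the smallest p in each list of other pathway genes. Others, where named, were chosen after their values were seen. Alternatives were a pseudocount of 0.1, no filter, a filter of 5 FPKM, median-ratio scaling, scaling to a total that left out neutrophil, erythroid, B-cell and muscle markers, no trend, the replicate number as a block, leaving out each library, and leaving out Ctrl 1 and OE 3 together.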

Additional observations from a re-analysis of the deposited data

How the results depend on the processing

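Leaving out 1 library at a time gave 0 to 8 genes of the set called, 0 to 597 of all genes and 0 to 16 other pathway genes. Only leaving out the library labelled Ctrl 1 gave any call, with 8, 597 and 16. Leaving out OE 3 with it gave 13, 1388 and 23. No other setting called a gene. Of 567 recomputed values for the 42 genes, 522 kept their sign and their side of the threshold, 21 passed it and 24 changed sign. The sign held in every alternative run for 31 genes. The median difference of the set ran from 0.18 with a filter of 5 FPKM to 0.51 without OE 2. The median over all genes moved to 0.01 with median-ratio scaling. Genes without overlap numbered 3 to 27 when 1 library was left out, and 31 without the library labelled Ctrl 1 and OE 3. They numbered 5 with no filter, 1 with a filter of 5 FPKM and 4 with either scaling. The share over all genes is not given for these settings, and fewer libraries in a group make separation easier. Counts with libraries left out are therefore not read against the count with all libraries. Nor are the counts with another filter or scaling read as a result about the set. In 1 scaling, without marrow and muscle markers, Bmpr2 overlapped and Id2 lay below in OE. The pseudocount, the trend and the block do not bear on that count.

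Signs changed for 11 genes of the set and, of the 16 other pathway genes for which every setting was run, for Lefty1 and Acvrl1. The cause was not tested. With libraries left out, singly or with OE 3 beside the library labelled Ctrl 1, the difference ran from -0.25 to 0.18 for Inhba, -0.050 to 0.51 for Nog, -0.38 to 0.74 for Chrdl1 and -0.43 to 0.32 for Grem1. It ran from -0.095 to 0.79 for Ltbp4, -0.23 to 0.27 for Tgfbr3, -0.086 to 0.33 for Bmpr1a, -0.019 to 0.26 for Smad1 and -0.15 to 0.0037 for Smad2. For Smad3 it ran from -0.10 to 0.20, for Smad7 from -0.10 to 0.34, for Lefty1 from -0.25 to 0.21 and for Acvrl1 from -1.11 to 0.072. Inhba was at 0.00065 with median-ratio scaling and 0.030 when marrow and muscle markers were left out of the scaling total.

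With the replicate number as a block, 0 genes of the set and 0 of all genes were called, and 18 of the 42 and 1797 of all genes had an unadjusted p under 0.05 in limma, against 3 and 999 without the block. Deviations of same-numbered libraries correlated at 0.442, 0.087 and 0.311 for numbers 1, 2 and 3. Libraries of unlike number correlated from -0.62 (OE 1 with Ctrl 2) to 0.416 (OE 3 with Ctrl 2). Deviations from a mean of 3 libraries sum to 0, so these values cannot decide whether the numbers mark pairs. The main fit did not take them as pairs. With 3 libraries a group and no counts, small changes of genes near 1 FPKM cannot be resolved.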

Other observations

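Ratios between genes of the set, chosen after their values were seen and given without a test, separated Ctrl 2 and Ctrl 3 from the other 4 libraries. The ratio of Id3 to Id2 in FPKM was 2.15, 1.27 and 1.36 in OE 1, 2 and 3, against 1.42 for the library labelled Ctrl 1, 0.171 for Ctrl 2 and 0.150 for Ctrl 3. The ratio of Tgfb3 to Tgfb1 was 0.148, 0.105 and 0.0514 in OE, against 0.117 for the library labelled Ctrl 1, 0.0116 for Ctrl 2 and 0.0160 for Ctrl 3. The ratio of Bmp6 to Bmp7 ran the other way, at 0.963, 1.96 and 4.14 in OE, against 1.72 for the library labelled Ctrl 1, 18.6 for Ctrl 2 and 12.4 for Ctrl 3. For Bmp2 over Bmp4 it was 0.587, 0.547 and 0.760 in OE, against 0.418 for the library labelled Ctrl 1, 1.06 for Ctrl 2 and 2.29 for Ctrl 3.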
